A study of Mus musculus with 2 samples.

Results

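The 10 genes described here lie next to 3 of the *Hox* clusters of the mouse and were chosen by name from the 29311 genes of the expression tables. *Snx10*, *Skap2*, *Evx1*, *Hibadh* and *Tax1bp1* flank *HoxA* on chromosome 6. *Skap1*, *Calcoco2* and *Ttll6* flank *HoxB* on chromosome 11, and *Smug1* and *Cbx5* flank *HoxC* on chromosome 15. Their levels were compared between 2 samples of wild-type cells, E14 embryonic stem (ES) cells and forebrain dissected at E10.5 from embryos of strain B6CBAF1/J. Per the study's methods, forebrain RNA came from individual embryos rather than a pool. Each cell type has 1 sample, and so no difference given here has a replicate check. The study asked whether silent *Hox* clusters with bivalent marks (ES cells) and with H3K27me3 alone (forebrain) differ in structure and in background transcription, and the flanking genes surround these clusters.

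*Hox* genes encode transcription factors that pattern the body from head to tail. Their clusters arose from an ancestral cluster by duplication of whole chromosomal regions, so that relatives of a gene next to one cluster are often found next to another. *Hox* clusters are covered by Polycomb marks in cells that do not use them, whereas many genes around them serve general functions of the cell. Enhancers of *Hox* genes are also found in the flanking DNA, in some cases among or within the flanking genes.

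Transcript levels are given as deposited by the authors, in RPKM (reads per kb of exon, scaled per sample), and genes are compared with each other only on this scale. Gene-mapped reads inferred from these values number 4.27e+07 for the ES cell sample and 5.98e+07 for forebrain. By this inference, 1 read per kb of exon gives a value of 1.222 in ES cells and 0.8195 in forebrain. Usual RPKM, which is scaled by sequencing depth, would be far smaller for 1 read per kb at these depths. The deposited values are thus not on the usual RPKM scale, and their size cannot be compared with RPKM of other studies. Intervals in parentheses are exact Poisson or binomial 95% intervals on the inferred reads and cover counting error only. A gene is called higher where its log2 ratio of RPKM + 1 was at least 1 (2-fold), and ratios of low genes come out too small on this scale. All 6 ES cell markers were higher in ES cells (898.53 to 11505, compared with 1.59 to 58.93), and all 6 forebrain markers were higher in forebrain (15.86 to 876.64, compared with 0 to 17.54). Forebrain also held all 3 erythroid markers (summed RPKM 306118 compared with 108.59), all 3 endothelial markers (1271 and 50.6) and all 4 mesenchyme markers (6788 and 41.5) at the higher level. The 4 genes of the midbrain and hindbrain list summed to 517.29 in ES cells and 50.99 in forebrain, of which *Gbx2* made up 459.98 and 8.98. In such bulk samples, fewer cells of a type and less RNA per cell cannot be told apart.

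Of the 10 flanking genes, *Evx1*, *Calcoco2* and *Skap2* were at least 2-fold higher in ES cells, and none was at least 2-fold higher in forebrain. The former limit was passed by 23.3% of all listed genes and by 18.9% of the protein-coding ones. The latter was passed by 25.8% and 27.9%, respectively. A share of 3 in 10 is thus near the background, and the results below concern single genes and their position. Division of each sample by the sum of its values moved the split from 3 and 0 genes to 3 and 1, as *Cbx5* then passed the limit in forebrain. The median log2 ratio of the 10 genes was 0.56, compared with -0.01 over all listed genes and -0.17 over the protein-coding ones. With that division the median was 0.29 over the 10 genes and -0.26 over all listed genes. Of all listed genes, 19.7% were then higher in ES cells and 30% in forebrain.

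**Figure D1:**
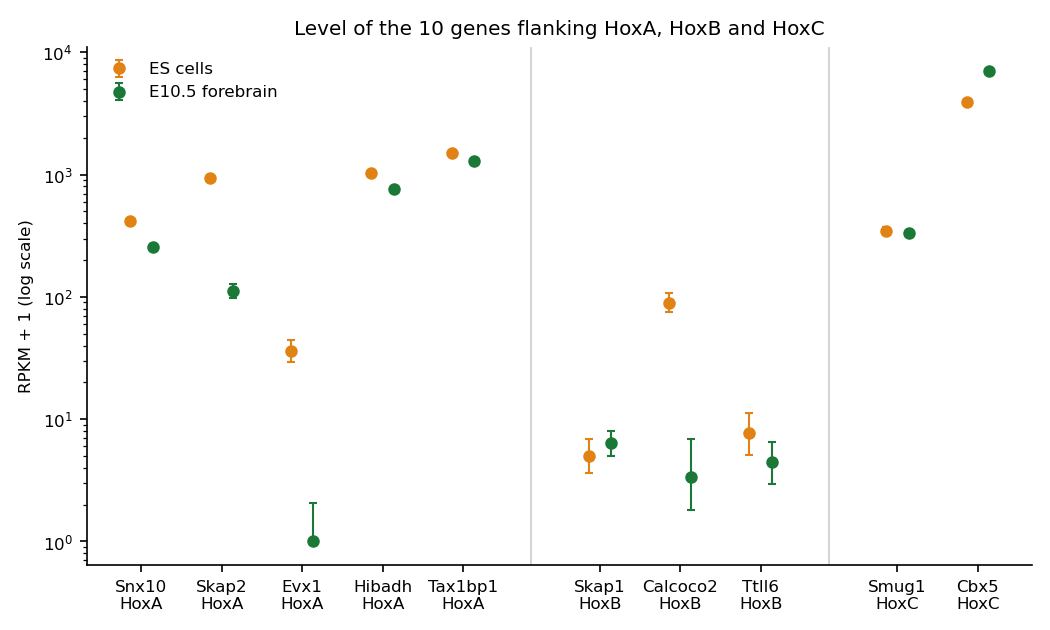
RPKM + 1 (log axis) of the 10 flanking genes in ES cells (orange) and E10.5 forebrain (green), grouped by cluster, with 1 sample per cell type; bars are 95% counting intervals. *Skap2*, *Evx1* and *Calcoco2* separate the samples most, and *Skap1* and *Ttll6* stay below 7 RPKM in both.

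The promoters of the 3 genes that were higher in ES cells, and that of *Skap1*, a relative of *Skap2* with a low level in both samples, are shown because their base composition could be set beside the levels. Each window holds the 250 bases before the annotated start of the gene and its first 50 bases in NCBIM37 (mm9), written 5′ to 3′ on the strand of the gene with CpG dinucleotides in capitals.

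*Evx1*, chr6:52263242-52263541, plus strand: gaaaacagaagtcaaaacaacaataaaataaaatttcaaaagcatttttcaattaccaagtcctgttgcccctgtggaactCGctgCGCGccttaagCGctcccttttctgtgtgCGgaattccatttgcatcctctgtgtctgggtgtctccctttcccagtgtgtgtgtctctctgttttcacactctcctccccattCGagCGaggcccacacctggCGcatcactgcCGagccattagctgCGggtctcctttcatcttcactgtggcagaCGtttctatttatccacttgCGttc

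*Calcoco2*, chr11:95973229-95973528, minus strand: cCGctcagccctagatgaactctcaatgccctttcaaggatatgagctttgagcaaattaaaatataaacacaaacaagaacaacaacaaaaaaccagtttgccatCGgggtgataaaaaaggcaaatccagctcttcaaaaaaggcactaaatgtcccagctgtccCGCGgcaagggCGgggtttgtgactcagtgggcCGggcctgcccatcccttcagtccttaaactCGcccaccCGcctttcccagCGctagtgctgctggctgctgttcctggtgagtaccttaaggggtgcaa

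*Skap2*, chr6:51962499-51962798, minus strand: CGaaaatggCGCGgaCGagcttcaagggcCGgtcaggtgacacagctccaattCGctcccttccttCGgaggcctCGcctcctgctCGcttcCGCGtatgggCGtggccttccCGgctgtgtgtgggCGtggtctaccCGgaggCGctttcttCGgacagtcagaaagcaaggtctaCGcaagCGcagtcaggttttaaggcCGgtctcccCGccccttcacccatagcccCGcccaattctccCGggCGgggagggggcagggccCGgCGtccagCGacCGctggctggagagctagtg

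*Skap1*, chr11:96325657-96325956, plus strand: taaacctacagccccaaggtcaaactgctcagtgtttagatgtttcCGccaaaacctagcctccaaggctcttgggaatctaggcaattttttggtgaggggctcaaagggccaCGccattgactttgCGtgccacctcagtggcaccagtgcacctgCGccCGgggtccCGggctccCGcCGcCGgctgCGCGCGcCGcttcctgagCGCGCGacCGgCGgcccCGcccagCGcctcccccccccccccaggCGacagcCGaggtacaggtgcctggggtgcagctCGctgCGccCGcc

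The 3 genes differed in the CpG content of their promoters. The window of *Skap2* held 28 CpGs, that of *Evx1* 12 and that of *Calcoco2* 9, compared with a median of 14 over 19616 promoters of listed protein-coding genes (quartiles 5 and 25). *Skap1*, with 4.01 and 5.33 RPKM, had 25 CpGs, and *Smug1*, with 345.74 and 329.96, had 2. The other members had 8 (*Ttll6*) to 28 (*Cbx5*). The letters TATAAA, searched on both strands, were found in the windows of *Calcoco2* and *Ttll6* and in 10.8% of the protein-coding promoters. A match at any position of the window was counted, so these letters need not mark a TATA box. The annotated first base may not be the start that is used in these cells.

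On *HoxA*, the genes nearest to the cluster differed most between the samples. *Evx1*, a homeobox gene of the even-skipped family that is known from the primitive streak and the spinal cord, starts 52.6 kb from *Hoxa13* on the 5′ side (chromosome 6, 52263492 to 52268372, mm9). Its RPKM was 35.43 in ES cells (28.1 to 43.7, 83 reads) and it is listed at 0 in forebrain, where 3 reads would give 0.855. Its ES cell value was 41.5 times this floor of 3 inferred reads. The lower limit of the counting interval of its ratio was 32.8. Its log2 ratio of 5.19 depends on the pseudocount (8.47 with 0.1, 3.02 with 5). *Evx1* stood first by ratio among the 10 protein-coding genes other than *Hox* genes within 1 Mb of *HoxA*. Its neighbour *Hoxa13* rested on 1 read in ES cells (RPKM 0.49) and is listed at 0 in forebrain.

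Among primitive streak and early mesoderm markers, 2 of 4 were higher in ES cells and the list summed to 1212 in ES cells and 240.0 in forebrain. The brachyury gene *T* held most of the former sum, with 1112 compared with 2.66, while *Eomes* was higher in forebrain (233.7 compared with 90.06). *Mesp1* (0.96 and 2.57) and *Mixl1* (9.05 and 1.07) were low in both samples. The part of such cells in the *Evx1* value was not tested. *Evx1* also shares 1335 bases with the antisense lincRNA *5730457N03Rik* (7.69 and 2.71), known as *Evx1os* in RefSeq. The libraries keep strand, but whether the counting used it is not stated, so the reads of the pair may be mixed.

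*Skap2* encodes a Src-associated adaptor protein that links receptors to the actin skeleton, mostly studied in leukocytes. It lies 142.8 kb from *HoxA* on the 3′ side (51809165 to 51962548) and runs away from the cluster over 153.4 kb. Its RPKM was 943.23 in ES cells (892 to 996, 1264 reads) and 110.01 in forebrain (96.0 to 126, 220 reads), an 8.57-fold difference (7.42 to 9.93). The lower level was above the forebrain median of all listed genes (62.37) but below that of the protein-coding ones (123.99). The gap between *Skap2* and *HoxA* holds *Gm15055*, a non-coding transcript known as *Halr1* or *Haunt* in RefSeq, 42.8 kb from the cluster. Its RPKM was 232.59 in ES cells (122 reads) and 14.65 in forebrain (11 reads), 15.9-fold higher in ES cells (8.92 to 34.0).

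*Skap2* and *Gm15055* were thus both called higher in ES cells. The pseudogene *Gm8078*, between *Gm15055* and *HoxA*, had 7.51 from 4 reads in ES cells and is listed at 0 in forebrain. On the 5′ side, the lincRNA *Gm15053* between *Hoxa13* and *Evx1* is listed at 0 in ES cells and had 1 read in forebrain.

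The other members near *HoxA* had over 250 RPKM in both samples and differed less. *Snx10* encodes a sorting nexin of endosomes that is known for its role in osteoclasts. It lies 564.7 kb from the cluster on the 3′ side, with 414.54 RPKM (395 to 435) in ES cells and 256.11 (243 to 269) in forebrain, 1.62-fold apart (1.51 to 1.74). *Hibadh* encodes the mitochondrial 3-hydroxyisobutyrate dehydrogenase of valine breakdown. On the 5′ side, 285.3 kb from the cluster, its values were 1026.80 (981 to 1074) and 761.99 (730 to 796), a 1.35-fold difference (1.26 to 1.43). *Tax1bp1*, a ubiquitin-binding receptor of selective autophagy, follows at 452.8 kb with 1502.76 (1470 to 1536) and 1290.85 (1266 to 1316), 1.16-fold apart (1.13 to 1.20). The direction of *Tax1bp1* depended on scaling, as its log2 ratio of 0.22 became -0.05 with division by the sum. An H/ACA snoRNA gene, *SNORA32*, lies within *Hibadh* on the same strand (488.51 and 221.89).

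**Figure D2:**
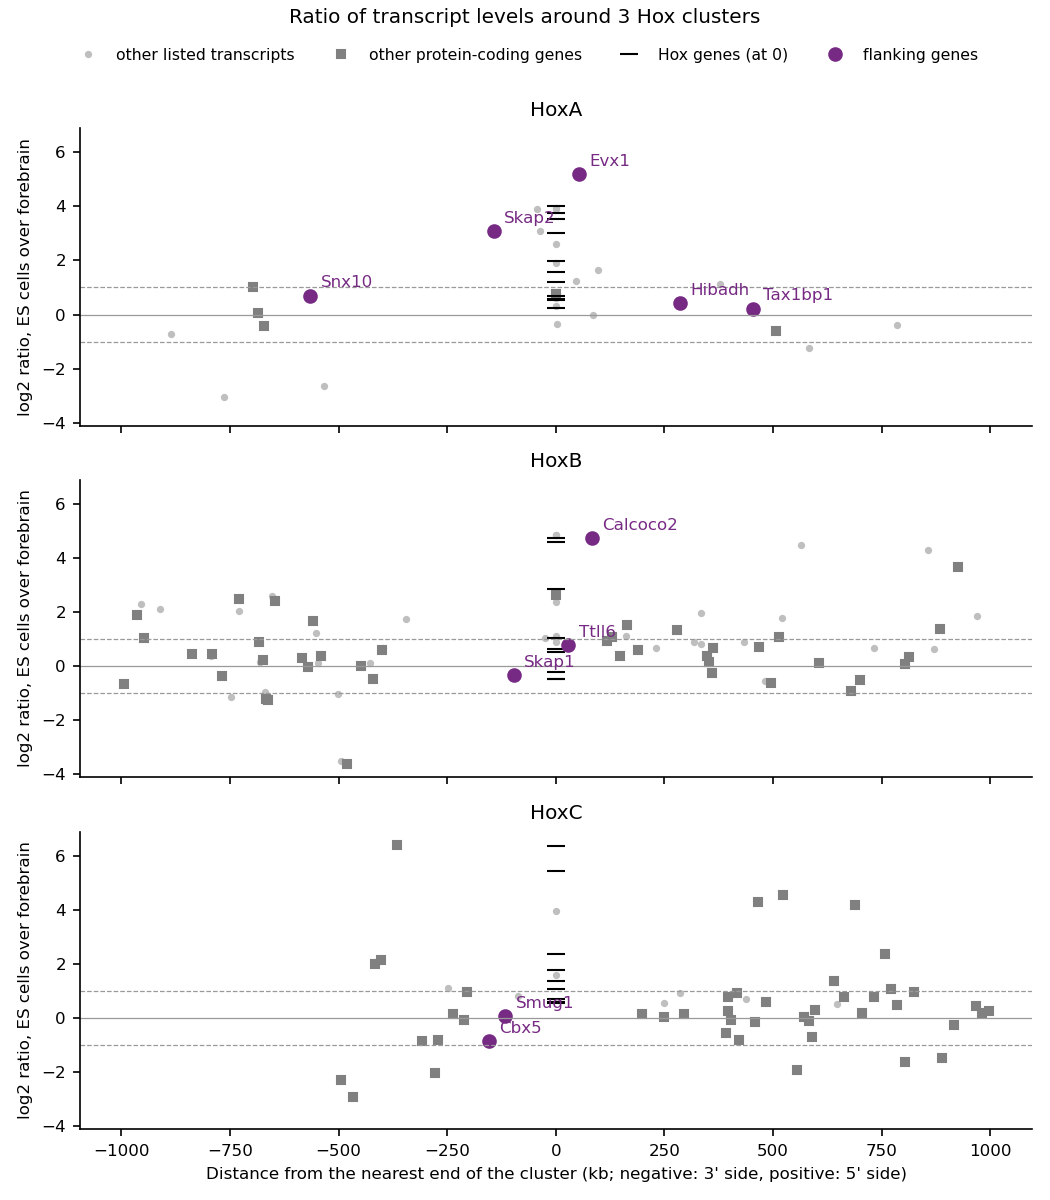
Log2 ratio of RPKM + 1 (ES cells over E10.5 forebrain) against distance in kb from the nearest end of each cluster, negative on the 3′ side and positive on the 5′ side, for the flanking genes (purple), other listed transcripts within 1 Mb (grey, squares where protein-coding) and *Hox* genes (bars at 0); dashed lines mark 2-fold. Near *HoxA*, *Evx1* (5.19) and *Skap2* (3.09) lie above the more distant *Snx10*, *Hibadh* and *Tax1bp1* (0.69, 0.43 and 0.22), and near *HoxC* both members lie at 0.07 or lower.

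On *HoxB*, all 3 members lie within 100 kb of the cluster and were low, except *Calcoco2* in ES cells. *Ttll6*, an enzyme that adds glutamate chains to tubulin and acts in cilia, is the nearest at 28.9 kb from *Hoxb13* on the 5′ side (chromosome 11, 95995100 to 96026765). Its RPKM was 6.71 in ES cells (4.12 to 10.2, 21 reads) and 3.5 in forebrain (1.94 to 5.52, 16 reads). The interval of the ratio, 0.973 to 4.01, includes no difference. *Hoxb13*, on the other side of this gap, had 23.52 in ES cells and is listed at 0 in forebrain, so the end of the cluster stood above its flanking gene in ES cells and below it in forebrain.

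*Calcoco2*, whose human counterpart NDP52 is a receptor that brings bacteria and damaged mitochondria to autophagosomes, lies 82.4 kb from *Hoxb13* (95960640 to 95973278). Its RPKM was 88.73 in ES cells (73.6 to 107, 118 reads) and 2.34 in forebrain (0.821 to 5.90, 5 reads), a 37.9-fold difference (14.7 to 110). It stood first by ratio among the 44 protein-coding genes other than *Hox* genes within 1 Mb of *HoxB*. The value is uncertain, however. Of its transcript of 1621 bases, 61.7% matched sequence elsewhere in the genome. The best match was the pseudogene *Gm11701* on chromosome 2 (chr2:144190447-144191417, mm9), with 96.2% identity over 973 aligned bases. *Gm11701* is listed at 50.35 in ES cells and 7.21 in forebrain, and how the counting divided reads between the copies is not stated. Among the other members, only *Hibadh* had such a match elsewhere (7.34% of its transcript), at a minimum of 95% identity over 100 bases.

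*Skap1*, the relative of *Skap2* that serves T cell adhesion, lies 96.3 kb from *Hoxb1* on the 3′ side (96325907 to 96620791). It had the lowest value of the 10 genes in ES cells. Its RPKM was 4.01 in ES cells (2.65 to 5.94, 26 reads) and 5.33 in forebrain (3.97 to 7.01, 51 reads), a ratio of 0.752 whose interval (0.455 to 1.24) includes no difference. *Hoxb1* had 6.31 from 12 reads in ES cells and is listed at 0 in forebrain, and the pseudogene *Gm11531*, between *Hoxb1* and *Skap1*, had 36.67 and 17.03. The lincRNA *2010300F17Rik* lies within the bounds of *Skap1* on the opposite strand (16.81 and 4.34). Of the leukocyte and T cell markers, *Ptprc* is listed at 0 in ES cells and had 68.52 in forebrain, *Cd3e* had 5.95 and 0.57, *Csf1r* had 77.98 and 260.66, and *Lck* had 445.37 and 199.53. This list, with 2 of 4 higher in each sample, summed to 529 in both, and its part in the *Skap1* and *Skap2* values was not tested.

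Both members near *HoxC* lie on the 3′ side and had over 250 RPKM in both samples. *Smug1*, a DNA glycosylase that removes uracil from DNA, lies 116.5 kb from *Hoxc4* (chromosome 15, 102983738 to 102988383). Its values were 345.74 (324 to 369) in ES cells and 329.96 (312 to 348) in forebrain, and the interval of the ratio (0.962 to 1.14) includes no difference. Its direction turned with division by the sum (log2 ratio -0.20, compared with 0.07) and with division by the inferred reads (-0.03). *Hoxc4*, across the gap, had 2.39 from 5 reads in ES cells and is listed at 0 in forebrain, and the lincRNA *D930007P13Rik* in the gap rested on 2 reads and 1 read. *Hoxc13*, at the 5′ end where no member lies, had 56.55 (114 reads) and 0.33 (1 read).

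*Cbx5* encodes heterochromatin protein HP1 alpha, which binds methylated H3K9. It lies 154.7 kb from *Hoxc4* (103021975 to 103070247) and had the highest level of the 10 genes in both samples. Its RPKM was 3914.45 in ES cells (3869 to 3960) and 7040.59 in forebrain (6991 to 7090), 1.80-fold higher in forebrain (1.77 to 1.82). This was below the limit of 2-fold, with a log2 ratio of -0.85 (-1.12 with division by the sum). Among the 46 protein-coding genes other than *Hox* genes within 1 Mb of *HoxC*, it ranked 1 by level in forebrain and 2 in ES cells, but 40 by ratio. No member near *HoxC* was called in either direction.

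In order of level, ES cells had *Cbx5*, *Tax1bp1*, *Hibadh*, *Skap2*, *Snx10*, *Smug1*, *Calcoco2*, *Evx1*, *Ttll6* and *Skap1*. *Hibadh* and *Skap2* did not differ beyond their counting intervals in this order, nor did *Ttll6* and *Skap1*. In forebrain, the order was *Cbx5*, *Tax1bp1*, *Hibadh*, *Smug1*, *Snx10*, *Skap2*, *Skap1*, *Ttll6*, *Calcoco2* and *Evx1*. There *Skap1*, *Ttll6* and *Calcoco2* had overlapping intervals, as had *Calcoco2* and *Evx1* (0 to 1.05). The 6 genes at the top were the same in both samples, and *Skap2* moved from rank 4 to rank 6 among them.

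Among the 10 genes, those within 100 kb of a cluster had lower levels than those farther away. *Evx1*, *Calcoco2*, *Ttll6* and *Skap1*, all within 100 kb, had 4.01 to 88.73 RPKM in ES cells and 0 to 5.33 in forebrain. The 6 genes beyond 100 kb had 345.74 to 3914.45 and 110.01 to 7040.59. Among these 6, *Cbx5* at 154.7 kb had the highest level. The most distant, *Snx10* at 564.7 kb, had 414.54 in ES cells and 256.11 in forebrain. Level thus did not rise steadily beyond 100 kb. Spearman's rho of level with distance from the nearest end of the cluster was 0.77 in ES cells and 0.78 in forebrain, and that of the log2 ratio with distance was -0.42 (n = 10 genes, given as a description). The genes share the same 2 libraries, and 3 of the 4 nearest belong to *HoxB*. The 4 genes are also the only listed protein-coding genes other than *Hox* genes that lie outside *HoxA*, *HoxB* and *HoxC* within 100 kb of these clusters. The 9 other protein-coding genes within 250 kb had a median of 422 RPKM in ES cells and 325 in forebrain, with *Gip*, a gut hormone gene, at 5.33 and 1.19. The medians were 73.3 and 159 for the 30 such genes between 250 and 500 kb, and 221 and 208 for the 49 between 500 and 1000 kb. Over these neighbours, the median level was thus highest in the bin nearest to the clusters. The bins leave out the 10 genes, however, and their nearest gene, *Atp5g1*, lies 118.6 kb away. They therefore cannot show how level goes with distance within 100 kb, where the low members lie.

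**Figure D3:**
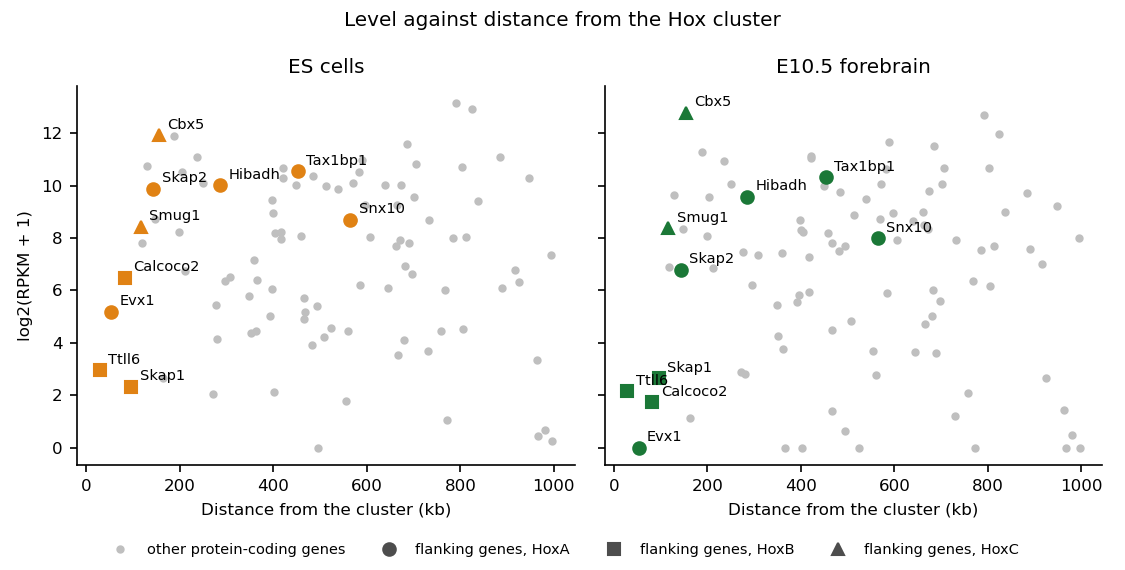
Log2(RPKM + 1) against distance in kb from the cluster in ES cells (left) and E10.5 forebrain (right) for the 10 flanking genes (symbols by cluster) and the other protein-coding genes within 1 Mb outside the clusters (grey). The 4 flanking genes within 100 kb lie below the 6 more distant ones in both samples.

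Next to *HoxD*, 2 of the 3 protein-coding genes within 100 kb had higher levels. *Mtx2*, a mitochondrial import gene 60.7 kb from that cluster, had 724.38 and 896.54, and *Lnp*, an endoplasmic reticulum gene at 88.9 kb, had 152.91 and 322.88. Only *Evx2*, 8.4 kb from *Hoxd13*, was low, listed at 0 in ES cells and with 6.01 from 33 reads in forebrain. *Evx1* and its relative *Evx2* thus had opposite directions in these samples. Of the 7 genes listed around *HoxD*, *Nfe2l2* was at least 2-fold higher in ES cells and *Evx2* and *Lnp* in forebrain, with a median log2 ratio of -0.31. *Nfe2l2* (1.26) lost its call with division by the sum (0.99), and *Lnp* (-1.07) with scaling by the upper quartile (-0.99). *Atf2* (0.26), *Atp5g3* (0.34) and *Hnrnpa3* (-0.86) lay between the limits. The 7 genes were chosen by name. Of them, *Atf2*, *Atp5g3*, *Hnrnpa3* and *Nfe2l2* lie 757.0 to 910.4 kb from *HoxD*, farther than any member lies from its cluster. Whether the flanks of *HoxD* differ from those of the other clusters was not tested.

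Relatives that flank different clusters were then set side by side. Matching sequence elsewhere in the genome was searched for the members only, so the values of the other relatives lack this check. *Skap2* and *Skap1*, both the first protein-coding gene on the 3′ side of their cluster, had log2 ratios of 3.09 and -0.34. In the autophagy receptor family, *Calcoco2* (4.75) stood apart from *Tax1bp1* (0.22) and from *Calcoco1* near *HoxC* (0.15), a relative that acts in autophagy of the endoplasmic reticulum and the Golgi and had 297.59 and 267.97 RPKM. *Snx10* (0.69) and *Snx11* near *HoxB* (0.62) had like ratios, as *Snx11* had 489.56 and 318.97.

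The 3 HP1 genes each had a higher value in forebrain on the deposited scale and with the 3 scalings tried, yet none passed 2-fold on the deposited scale. *Cbx5* near *HoxC* had a log2 ratio of -0.85, *Cbx1* near *HoxB* of -0.47 (1639.42 and 2266.61) and *Cbx3* near *HoxA* of -0.44 (241.68 and 327.84). With the 3 scalings tried, the ratio of *Cbx1* ran from -0.74 to -0.38 and that of *Cbx3* from -0.71 to -0.35. Of the other relatives, *Nfe2l3* near *HoxA*, of a family of leucine zipper factors, was 2.03-fold higher in ES cells (1.66 to 2.49), and *Copz2* near *HoxB*, a subunit of the COPI vesicle coat, was 13.0-fold higher in forebrain (8.85 to 20.6). These were the only 2 of the 13 relatives beyond 2-fold on the deposited scale. The log2 ratio of *Nfe2l3* (1.01) fell below the limit with division by the sum (0.74) and by the inferred reads (0.92). *Copz1* near *HoxC* had 2152.81 and 1946.85. The mitochondrial ATP synthase gene *Atp5g1* (0.93) and the RNA-binding protein gene *Hnrnpa1* (0.96) came close to the limit. Both passed it with scaling by the upper quartile (1.01 and 1.05). On the deposited scale, *Atp5g2*, *Hnrnpa2b1*, *Nfe2* and *Nfe2l1* lay between -0.09 and 0.07.

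The local background was described over all 151 listed transcripts inside or within 1 Mb of the 3 clusters that are neither *Hox* genes nor members. Of all 151, 51 (33.8%) were at least 2-fold higher in ES cells and 15 (9.93%) in forebrain, and their median log2 ratio was 0.61. The 151 include 16 transcripts inside a cluster, which raise the share in ES cells. Of these 16, 11 (68.8%) were higher in ES cells and 0 in forebrain, with a median of 2.13. Of the 90 protein-coding ones, 22 were higher in ES cells (24.4%) and 9 in forebrain (10%), and the median was 0.31. The members' median of 0.56 thus lay between these values. The median of the protein-coding neighbours was 0.07 around *HoxA* (5 genes), 0.38 around *HoxB* (41 genes) and 0.18 around *HoxC* (44 genes), compared with member medians of 0.69, 0.78 and -0.39. These neighbours include *Gm53* (2.63) inside *HoxB* and *5730596B20Rik* (0.75, with 1.09 and 0.24 RPKM) inside *HoxA*. The others around *HoxA* lie at least 507.9 kb away. They are *Nfe2l3* (1.01), *Hnrnpa2b1* (0.07), *Cbx3* (-0.44) and *Jazf1* (-0.60), so the sign of that median rests on few genes. *HoxA* therefore has few protein-coding neighbours beside its 5 flanking genes, and a comparison of the flanks by cluster rests on few genes.

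Of transcripts that reached 10 RPKM in ES cells or forebrain, the 2 highest and 2 lowest ratios near each cluster were listed. *Gtsf1*, a gene of the piRNA pathway 365.6 kb from *HoxC*, had 83.44 in ES cells and is listed at 0 in forebrain. *Pde1b* and *Ppp1r1a*, genes of signalling in striatal neurons at 466.2 and 493.4 kb, were 7.74-fold and 5.03-fold higher in forebrain. The same rule gave *Evx1* and *Copz2*, described above, and a group of non-coding or predicted transcripts. *Gm17725* (0.73 and 13.23) and *Mir148a* (24.66 and 41.37) were the lowest by ratio near *HoxA*. *Mir148a* rested on 2 and 5 reads, and the interval of its ratio (0.0568 to 3.64) includes no difference. *Gm11523* (0 and 10.43) was low near *HoxB*, and *Mir196b* (14.36 and 0) and *Gm17671* (22.61 and 0) rested on 1 read each. *Mir196a-1* within *HoxB*, which shares its locus with *AL645478.1*, had 263.32 from 22 reads and 8.03 from 1 read. On the same side of *HoxC* as *Gtsf1*, *Smug1* and *Cbx5* lay between the cluster and these genes with differences below 2-fold.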

How the data were processed

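For both samples, the authors removed rRNA from total RNA, made single-end libraries that keep strand, used the HTSstation pipeline on NCBIM37 (mm9) and deposited RPKM per gene. The submitters' processing notes name Bowtie 0.12.7. The paper and the labels differ in the read length and in the pipeline named, and the annotation release and the scaling of RPKM are not given in the sources used here. The files count starts from 0, and 1 was added.

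All 29311 genes were matched to the NCBIM37 annotation by identifier and coordinates. Low values times exonic kb follow steps of 1.222 in ES cells and 0.8195 in forebrain (59.2% and 61.2% of genes with up to 2500 exonic bases lay within 0.05 of a whole multiple). These steps were taken as 1 read, and reads were rounded to whole numbers, so they are approximate. The search for steps was also run on values simulated from whole reads, which checks the code but not the read counts given here. With 1 sample per cell type no test was made, and genes were called at 2-fold on log2(RPKM + 1). Distances are from the nearest end of a gene to the outermost *Hox* gene. The members, lists and alternatives were chosen with earlier results of these data known. The text names the members, the outermost *Hox* genes (1 of them is not reported here), relatives near other clusters, genes flanking *HoxD*, transcripts between a cluster and its nearest member, and extreme neighbours. *Gip* was named after its value was seen. Python 3.11.15, numpy 2.4.6, pandas 2.3.3, scipy 1.17.1, matplotlib 3.10.9 and blastn 2.17.0 were used.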

Additional observations from a re-analysis of the deposited data

How the results depend on the processing

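Alternatives covered pseudocounts of 0.1 and 5, 3 scalings (the sum, the upper quartile and the inferred reads of each sample), limits of 1.5-fold and 4-fold, a minimum RPKM of 5, a window of 500 kb, protein-coding genes only and distances from the start of transcription. Of 98 alternatives, 79 stayed within 1.5 times a count or within the counting interval of a value. The number of members higher in ES cells was 3 under each setting except the 1.5-fold limit, which gave 5. The number higher in forebrain was 1 with scaling by the sum and 1 with the 1.5-fold limit. For the neighbours, the window of 500 kb gave 28 higher in ES cells and 5 in forebrain, and protein-coding genes alone gave 22 and 9, since fewer genes were counted. No called value changed sign. No paired analysis was possible because each cell type has 1 sample, and no replicate could be left out. Values below about 3 reads are not informative at this depth.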
